A study of Mus musculus with 2 samples.

Results

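The genes described here are 44 cell cycle genes out of the 32285 genes counted in the series, taken by symbol from a fixed list and grouped by the step of the cycle at which they act. The list holds 15 genes of G1 and the entry into DNA replication (G1/S), 21 genes of G2 and mitosis (G2/M), 3 D cyclins and 5 inhibitors of cyclin-dependent kinases. All 44 symbols were present in both count tables. Their levels were compared between cells of the cornea and limbus of a wild-type mouse after NaOH injury, an alkali burn of the ocular surface, and cells of the same tissue of an uninjured wild-type mouse that served as the control. Each group was 1 library of 1 mouse, profiled with the 10x Genomics droplet assay after most of the conjunctiva had been dissected away. The time after injury, the age and the sex were not given in the sources used here. With 1 library per group there is no replicate check and no test: every interval below is an exact 95% Poisson or binomial interval that covers counting error only, not the variation between mice. Intervals of UMI levels and their ratios also treat each UMI as independent and leave out the variation between cells. Where a count was 0, the limit given is instead the share that 3 counts would make, unless it is called exact.

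A dividing cell turns on these genes in sequence. D cyclins and their kinases inactivate the retinoblastoma protein in G1, which frees E2F factors to turn on E cyclins and the replication genes. The DREAM and MuvB complexes, with B-Myb and FoxM1, control the later G2/M genes, and the Cdkn1 and Cdkn2 inhibitors hold the kinases back. In the cornea, stem and progenitor cells lie in the basal layer of the limbus, basal epithelial cells divide throughout life, and keratocytes and vessels are largely quiescent until an injury.

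The promoters of the G2/M and G1/S members differed in their motifs. In RefSeq windows of 300 bases around the start site (build GRCm38.p6), 18 of the 21 G2/M members and 12 of the 15 G1/S members were matched by symbol. The letters TTTGAA, the core of the cell cycle genes homology region (CHR) bound by MuvB complexes, were found on either strand in 13 of the 18 G2/M members and in 1 of the 12 G1/S members, against 20.2% of the 27025 genes in the promoter table. The letters CCAAT, bound by NF-Y, were found in 16 of the 18 G2/M members and 8 of the 12 G1/S members, against 41.1% of all genes. An E2F site, searched as TTTCCCGC, TTTCGCGC, TTTGCCGC or TTTGGCGC on both strands and with overlaps allowed, was found in 1 of the 18 G2/M members and 6 of the 12 G1/S members, against 2.61% of all genes. The promoters of Ccnb2, Top2a and Mcm5 show the contrast: cyclin B2 and topoisomerase II alpha carry CHR and CCAAT letters, and the replicative helicase subunit Mcm5 carries an E2F site beside CCAAT letters. Capitals mark these motifs on either strand, and a match is a description of the letters, not of binding. The windows are chr9:70421505-70421804 (minus strand) for Ccnb2, chr11:99024140-99024439 (minus strand) for Top2a and chr8:75109259-75109558 (plus strand) for Mcm5, each read 5′ to 3′.
Ccnb2: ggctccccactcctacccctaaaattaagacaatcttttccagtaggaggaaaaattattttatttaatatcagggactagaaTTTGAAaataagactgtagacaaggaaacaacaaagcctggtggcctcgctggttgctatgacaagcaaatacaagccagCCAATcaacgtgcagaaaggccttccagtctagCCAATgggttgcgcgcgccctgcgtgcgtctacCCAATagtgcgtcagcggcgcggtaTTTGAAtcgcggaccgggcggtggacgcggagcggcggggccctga
Top2a: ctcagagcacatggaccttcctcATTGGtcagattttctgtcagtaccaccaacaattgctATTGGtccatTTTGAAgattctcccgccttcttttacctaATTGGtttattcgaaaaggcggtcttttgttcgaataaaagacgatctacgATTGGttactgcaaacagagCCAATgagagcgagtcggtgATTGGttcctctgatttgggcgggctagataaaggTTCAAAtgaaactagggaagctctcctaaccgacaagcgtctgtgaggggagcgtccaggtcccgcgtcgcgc
Mcm5: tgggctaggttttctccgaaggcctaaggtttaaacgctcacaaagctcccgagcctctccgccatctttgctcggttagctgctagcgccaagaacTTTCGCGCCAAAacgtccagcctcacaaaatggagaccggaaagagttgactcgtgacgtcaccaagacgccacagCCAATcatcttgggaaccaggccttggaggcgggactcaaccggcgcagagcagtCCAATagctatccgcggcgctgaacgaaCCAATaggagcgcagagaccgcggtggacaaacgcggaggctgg

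The injured library had 8326 cells after filtering with a median of 10589 unique molecular identifiers (UMIs), and the uninjured library had 6722 cells with a median of 10144.5 UMIs. Cells were clustered without the cell cycle genes and named from marker genes. The epithelial-like class held 5750 injured and 6088 uninjured cells. The other classes were stromal-like (801 injured, 458 uninjured), vascular endothelial-like (214 injured, 42 uninjured), mural-like (87 injured, 58 uninjured), Schwann-like (97 injured, 55 uninjured) and macrophage or monocyte-like (343 injured, 16 uninjured). Neutrophil-like cells (1018 injured, 2 uninjured) and T or NK-like cells (16 injured, 3 uninjured) could not be compared. Different clusters held most of the epithelial and stromal classes in each library. Levels are UMIs per 1000000 UMIs of the class (CPM), and ratios are injured over uninjured. Genes with at least 20 UMIs over both libraries were taken as measured, and those whose levels differed by 2-fold or more are counted below as higher or lower.

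In the epithelium the cell cycle genes were expressed at similar levels after injury, with the balance moved slightly towards G1/S. The 15 G1/S members together reached 431 CPM in injured and 388 CPM in uninjured epithelial-like cells, a ratio of 1.11 (1.09 to 1.13). The 21 G2/M members together reached 892 CPM in injured and 975 CPM in uninjured cells, a ratio of 0.915 (0.905 to 0.924). The G2/M members thus took 67.4% (67.2 to 67.7) of all phase gene UMIs in the injured library and 71.5% (71.3 to 71.8) in the uninjured one. None of the 15 G1/S members was 2-fold higher, where 14.2% of all 14697 measured genes of this class were, and 1 of the 21 G2/M members was 2-fold lower, where 11.8% of all genes were. The median log2 ratio was 0.25 for G1/S members and -0.09 for G2/M members, beside 0.02 for all measured genes.

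Among the G1/S members, 12 of 15 were at a higher level in the injured library. Cdt1, which loads the replicative helicase onto origins, had 9.69 CPM in injured and 6.51 CPM in uninjured cells, a ratio of 1.49 (1.33 to 1.67). Ccne1, the E cyclin that activates Cdk2, had 15.1 CPM in injured and 10.4 CPM in uninjured cells, a ratio of 1.45 (1.32 to 1.59). The 6 helicase subunits Mcm2 to Mcm7 lay on the same side, between a ratio of 1.07 (0.979 to 1.16) for Mcm2 and 1.39 (1.31 to 1.47) for Mcm4. Mcm4 had 33.9 CPM in injured and 24.5 CPM in uninjured cells. The sliding clamp Pcna was the most abundant member of the list, with 97.7 CPM in injured and 94.0 CPM in uninjured cells. Members that supply nucleotides were mixed. Thymidylate synthase, Tyms, had 33.4 CPM in injured and 38.9 CPM in uninjured cells, Rrm2 had 21.9 CPM in injured and 25.5 CPM in uninjured cells, and Rrm1, the large subunit of the same ribonucleotide reductase, had 47.3 CPM in injured and 44.6 CPM in uninjured cells. Ccne2 (2.93 CPM injured, 2.46 uninjured), Cdc6 (1.55 injured, 1.83 uninjured) and Gmnn (30.6 injured, 29.0 uninjured) had intervals of the ratio that included 1.

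The G2/M members split. Cenpf, a kinetochore protein that accumulates in G2 (GRCm38 chr1:189640606-189688086, minus strand), had 45.1 CPM in injured and 96.1 CPM in uninjured cells, a ratio of 0.470 (0.451 to 0.489). It was the one member beyond 2-fold. Nusap1, a spindle microtubule protein, had 20.7 CPM in injured and 32.2 CPM in uninjured cells (ratio 0.642, 0.602 to 0.684), and Mki67, the proliferation marker Ki-67, had 69.5 CPM in injured and 94.7 CPM in uninjured cells (ratio 0.734, 0.709 to 0.761). On the other side stood Cenpa, the centromeric histone H3 variant, with 59.8 CPM in injured and 41.1 CPM in uninjured cells (ratio 1.45, 1.39 to 1.52). The mitotic kinase Aurka had a ratio of 1.26 (1.12 to 1.41) and Cdk1, the kinase of mitotic entry, one of 1.12 (1.06 to 1.18), while the cyclin partners of Cdk1 were on the lower side: Ccna2 had a ratio of 0.803, Ccnb2 0.854 and Ccnb1 0.930. The most abundant member, the ubiquitin-conjugating enzyme Ube2c of the anaphase-promoting complex, had 119 CPM in injured and 116 CPM in uninjured cells, and Top2a had 86.9 CPM in injured and 79.6 CPM in uninjured cells. The remaining 10 G2/M members lay between 0.788 for Plk1, a mitotic kinase, and 1.19 for the spindle checkpoint kinase Bub1.

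**Figure D1:**
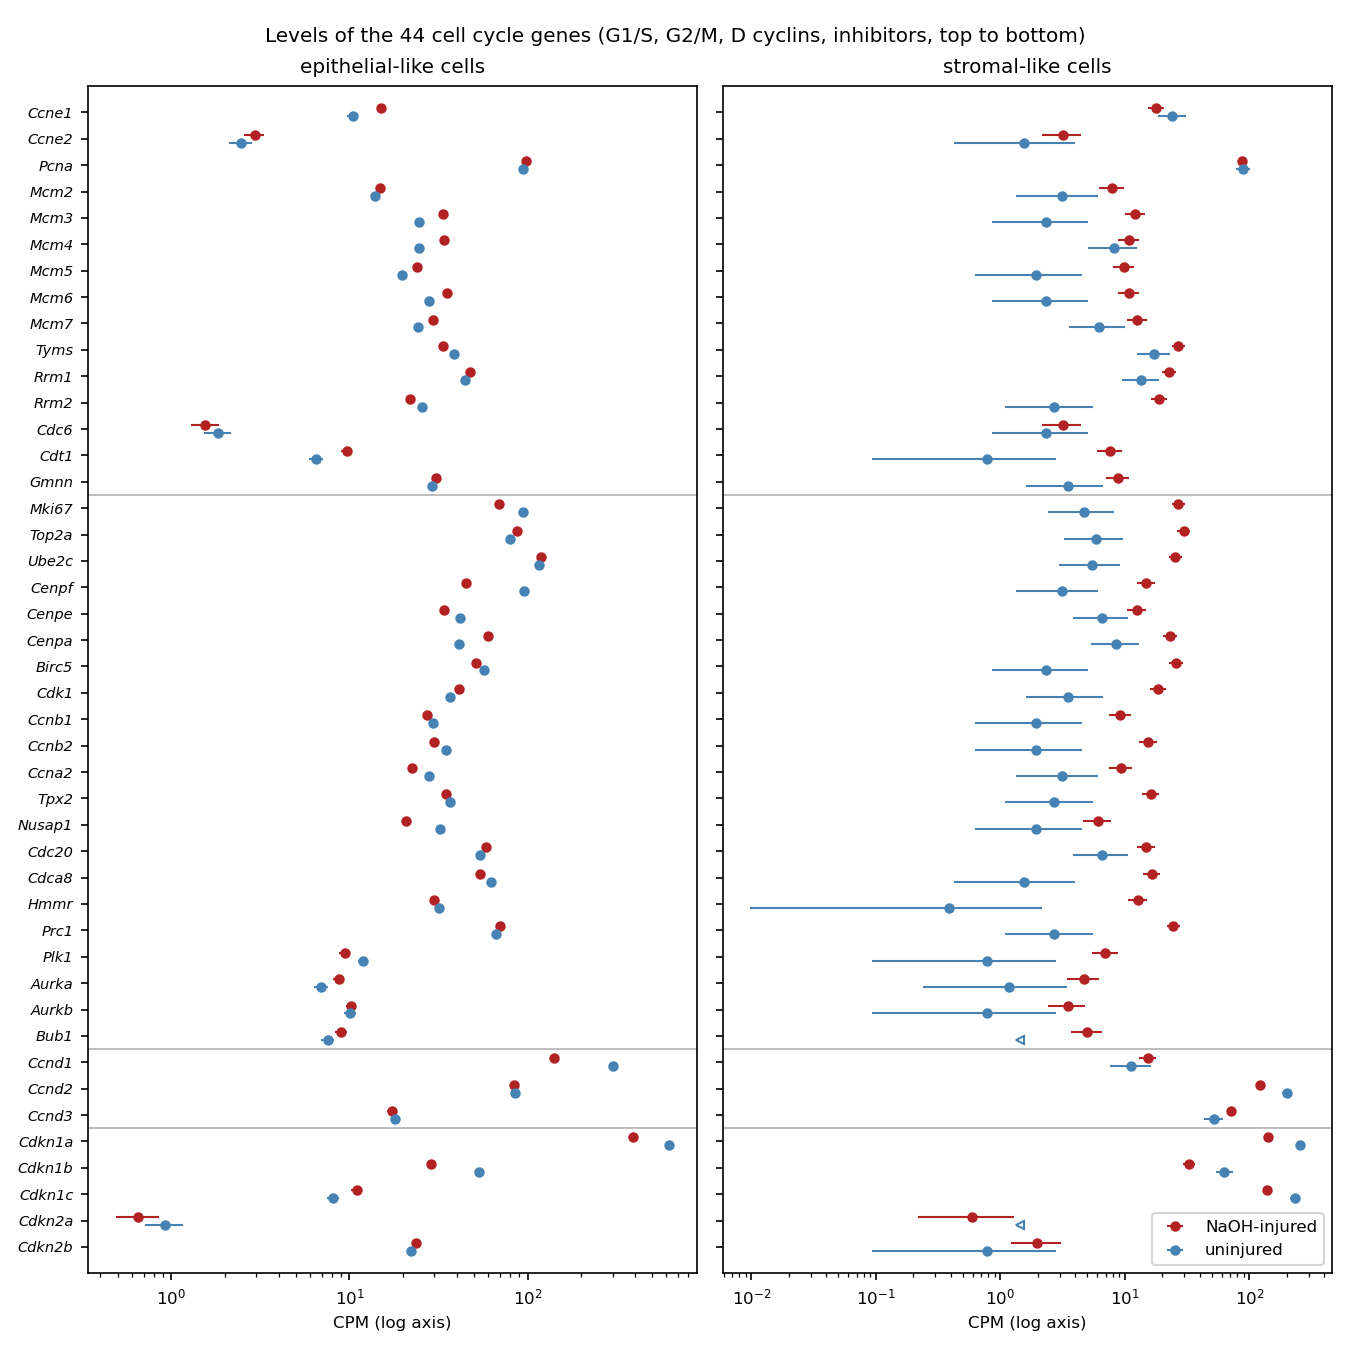
Level of each of the 44 genes in CPM (log axis) in epithelial-like cells (left) and stromal-like cells (right), with NaOH-injured cells in red and uninjured cells in blue; bars are 95% Poisson intervals, and an open triangle is the upper limit of a gene with 0 UMIs. In the epithelium most pairs lie close together apart from Cenpf and Ccnd1, and in the stroma all 21 G2/M members are at a higher level in injured cells.

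Ccnd1, Cdkn1a and Cdkn1b were lower in the injured epithelium, and the other D cyclins and inhibitors were level or slightly higher, apart from the rare Cdkn2a. Cyclin D1, Ccnd1 (GRCm38 chr7:144929931-144939925, minus strand), had 141 CPM in injured and 303 CPM in uninjured cells, a ratio of 0.466 (0.456 to 0.477). Ccnd2 had 84.4 CPM in injured and 85.1 CPM in uninjured cells and Ccnd3 had 17.2 CPM in injured and 18.0 CPM in uninjured cells. Thus 1 of 3 D cyclins was 2-fold lower, where 11.8% of all measured genes were. Cdkn1a, which encodes the p53-responsive inhibitor p21 (GRCm38 chr17:29090976-29100727, plus strand), was the most abundant of all 44 genes, with 392 CPM in injured and 621 CPM in uninjured cells, a ratio of 0.631 (0.622 to 0.641). Cdkn1b, which encodes p27, had 28.8 CPM in injured and 53.04 CPM in uninjured cells, a ratio of 0.543 (0.516 to 0.572). Cdkn1c, which encodes p57, was on the higher side with 11.0 CPM in injured and 8.08 CPM in uninjured cells, and the p15 gene Cdkn2b had 23.6 CPM in injured and 22.0 CPM in uninjured cells. Cdkn2a, whose count pools the p16 and p19Arf transcripts, was near the limit of detection with 0.651 CPM in injured and 0.920 CPM in uninjured cells. None of the 5 inhibitors was 2-fold changed, where 14.2% of all measured genes were 2-fold higher and 11.8% lower. Their summed level nevertheless had a ratio of 0.647 (0.638 to 0.656).

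With depth held equal, the share of epithelial cells carrying G2/M transcripts did not differ beyond counting error. Each cell was thinned to 2000 UMIs, and cells below that were left out (93 injured, 844 uninjured). At least 2 different G2/M members were seen in 1052 of 5657 injured cells, or 18.6% (17.6 to 19.6), and in 955 of 5244 uninjured cells, or 18.2% (17.2 to 19.3), a ratio of shares of 1.02 (0.935 to 1.12). At least 2 G1/S members were seen in 17.4% (16.5 to 18.5) of injured and 14.2% (13.3 to 15.2) of uninjured cells, a ratio of 1.22 (1.11 to 1.35), which was 1.02 (0.882 to 1.18) for cells with at least 3 G1/S members. Without thinning the G2/M shares were 43.5% in injured and 33.1% in uninjured cells, and the G1/S shares were 67.4% in injured and 47.4% in uninjured cells. At 500 UMIs per cell, where no cell was left out, the G2/M shares were 8.59% in injured and 8.20% in uninjured cells. Mature neutrophils do not divide, and the neutrophil-like cells of the injured library gave 0.295% (3 of 1018 cells) at the same 500 UMIs. Their median of 853 UMIs per cell was below the 11654 of the injured epithelial-like cells.

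Cells with many G2/M members were fewer in the injured library. Of the thinned epithelial-like cells, 76 of 5657 injured and 155 of 5244 uninjured cells carried 10 or more different G2/M members, while 562 injured and 526 uninjured cells carried 5 or more. Cells with at least 2 members of both lists made up 6.65% of injured and 5.91% of uninjured cells. Cells with G1/S members alone made up 10.8% (10.0 to 11.6) of injured and 8.33% (7.60 to 9.11) of uninjured cells, and cells with G2/M members alone made up 11.9% of injured and 12.3% of uninjured cells.

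Among cells carrying G2/M transcripts the same members stood apart. In epithelial-like cells with at least 2 other G2/M members, called G2/M cells from here on, Cenpf had 163 CPM in injured and 418 CPM in uninjured cells, a ratio of 0.391 (0.343 to 0.445). In cells with no other G2/M member it had 2.01 CPM in injured and 12.5 CPM in uninjured cells. Mki67 had 290 CPM in injured and 418 CPM in uninjured G2/M cells (ratio 0.693, 0.621 to 0.773), and Ccna2 had 70.7 CPM in injured and 107 CPM in uninjured cells (ratio 0.662, 0.532 to 0.823). Top2a (338 CPM injured, 356 uninjured), Cdk1 (139 injured, 140 uninjured) and Cdc20, the activator of the anaphase-promoting complex (218 injured, 228 uninjured), had intervals that included 1. Cenpa was again higher, with 200 CPM in injured and 166 CPM in uninjured G2/M cells (ratio 1.20, 1.04 to 1.40). Over the 21 members the ratio within these cells ran from 0.391 to 1.20, with a median of 0.824. With cells thinned to 1000 UMIs, the 778 injured epithelial-like cells with at least 2 G2/M members had a median depth before thinning of 16420 UMIs, against 11325 in the other injured cells. The 749 uninjured cells with at least 2 had 15288 UMIs, against 10627 in the other uninjured cells.

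Which members went together with the G2/M genes was alike in both libraries. Cells with at least 2 other G2/M members had 12.2 to 114 times the level of each G2/M member found in cells with none in the injured library, and 22.3 to 117 times in the uninjured one. For G1/S members the range was 1.50 to 10.6 in injured and 1.28 to 9.11 in uninjured cells. Cdc6, Tyms, Rrm1 and Rrm2 headed the list in injured cells, at 10.6, 6.79, 5.13 and 4.85, and the same 4 in uninjured cells, at 7.55, 6.15, 5.49 and 9.11. The rank of Cdc6 rests on few UMIs. It had 5.70 CPM (2.95 to 9.96) in injured and 6.28 CPM (3.25 to 11.0) in uninjured G2/M cells. Ccne1 was near level, at 1.50 (1.03 to 2.14) in injured and 1.28 (0.730 to 2.16) in uninjured cells. The inhibitors did not move as a block. Cdkn1a was slightly lower in the G2/M cells, at 0.914 (0.844 to 0.990) in injured and 0.926 (0.866 to 0.989) in uninjured cells, and Cdkn1b was higher, at 1.80 (1.39 to 2.33) in injured and 1.59 (1.29 to 1.94) in uninjured cells. Ccnd1 was lower, at 0.788 (0.684 to 0.904) in injured and 0.883 (0.801 to 0.971) in uninjured cells.

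**Figure D2:**
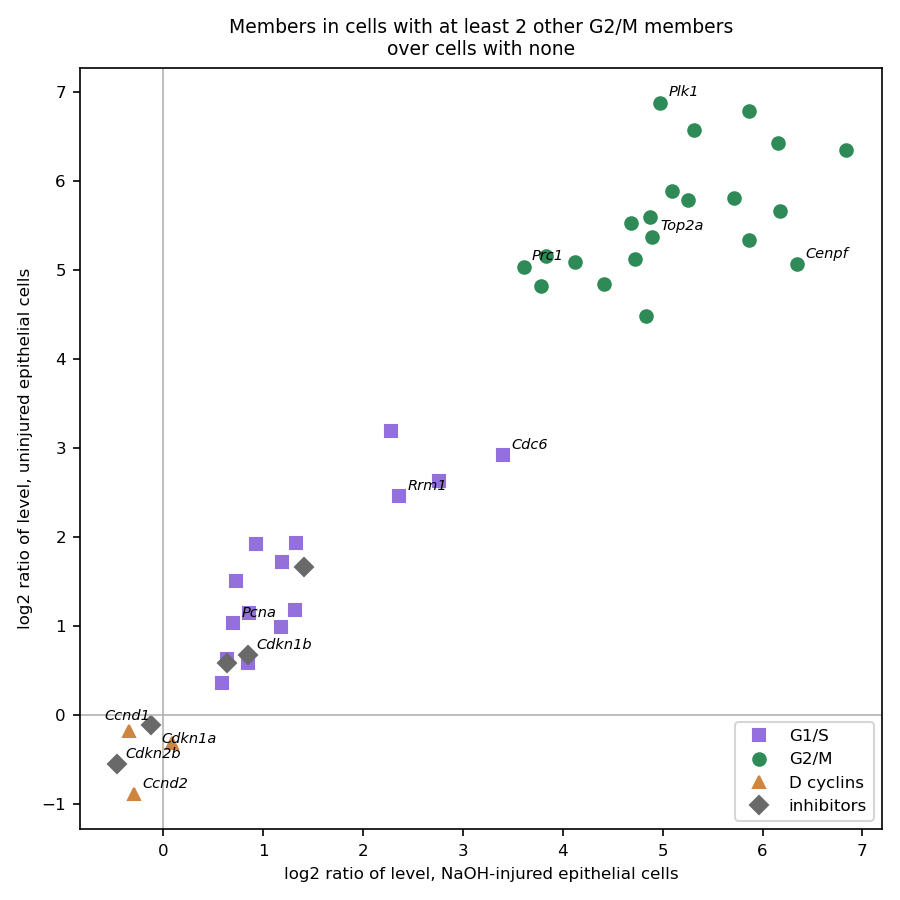
Each point is 1 of the 44 genes in epithelial-like cells thinned to 2000 UMIs; the axes give the log2 ratio of its level in cells with at least 2 other G2/M members over cells with none, for NaOH-injured cells (x) and uninjured cells (y). G2/M members lie at the upper right, G1/S members between them and 0, and D cyclins, Cdkn1a and Cdkn2b around or below 0.

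The epithelial clusters differed more from each other than the libraries did. In the injured library, cluster 0, led by Wfdc18 and Inhba, had G2/M members in 32.1% (29.7 to 34.5) of its cells, and cluster 1, led by the limbal gene Gpha2, in 14.1% (12.8 to 15.4). Cluster 8, led by Ppbp and Krt19, had them in 10.7% (8.50 to 13.3). In cluster 1 the G1/S share, 17.6% (16.2 to 19.1), was above the G2/M share, while in cluster 0 it was below it at 24.2% (22.0 to 26.4). In the uninjured library the shares of G2/M cells were 23.3% (21.6 to 25.1) in cluster 10, led by Fam169a and Erich5, 18.2% (16.3 to 20.2) in cluster 11, led by Nppb and Mmp13, and 1.03% (0.124 to 3.66) in cluster 17, led by Ly6g6c and Cysrt1. By their subtype markers injured clusters 0, 1 and 4 scored as limbal or basal, and injured cluster 8 (699 cells) as conjunctival. The large uninjured clusters 10, 11 and 12 scored as corneal, so that the 2 epithelial classes did not hold the same kinds of cells. The part of this in the ratios above was not tested.

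**Figure D3:**
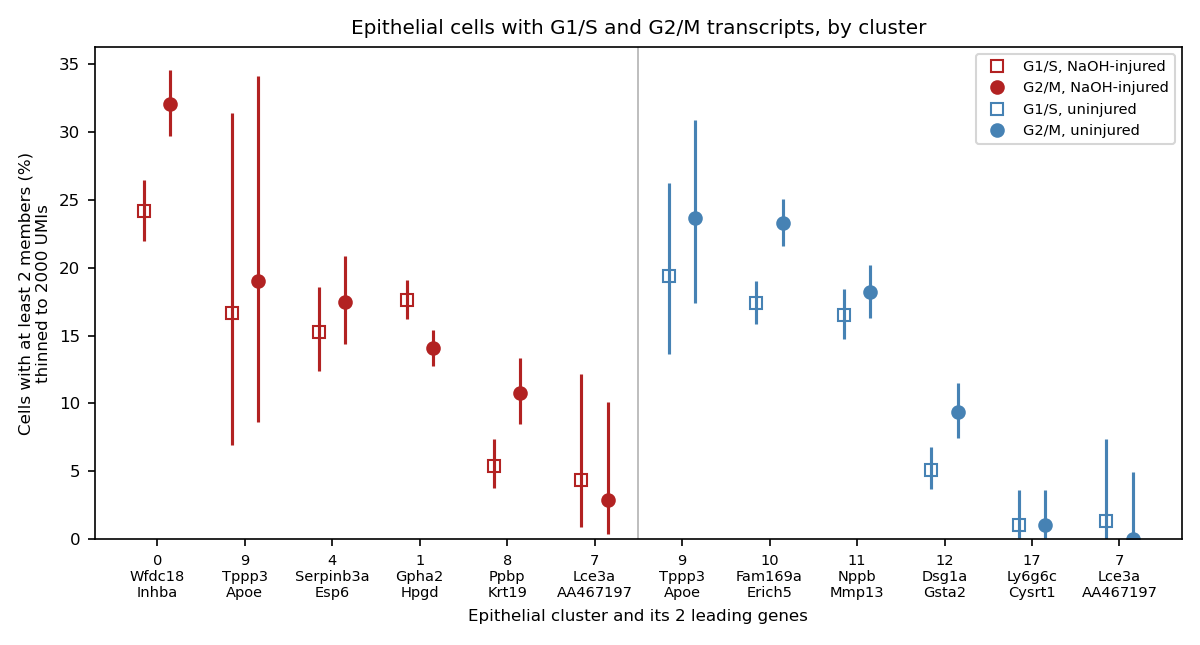
Share of cells (%) with at least 2 G1/S members (open squares) or at least 2 G2/M members (filled circles) after thinning to 2000 UMIs, per epithelial cluster, NaOH-injured in red (left) and uninjured in blue (right); bars are 95% binomial intervals. Shares of G2/M cells run from 2.90% to 32.1% among injured clusters and from 0% to 23.6% among uninjured clusters, and cluster 1 is the large cluster in which the G1/S share is above the G2/M share.

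Only clusters 7 and 9 held at least 30 epithelial cells of each library. In cluster 9, led by Tppp3 and Apoe (47 injured, 167 uninjured cells), Cenpf had 75.6 CPM in injured and 167 CPM in uninjured cells, a ratio of 0.452 (0.306 to 0.646), close to that of the whole class. Ccnd1 had 266 CPM in injured and 449 CPM in uninjured cells, a ratio of 0.592 (0.484 to 0.719). Cdkn1a went against the class, with 520 CPM in injured and 339 CPM in uninjured cells, a ratio of 1.53 (1.31 to 1.78). Ccne1 had 43.5 CPM in injured and 15.0 CPM in uninjured cells, a ratio of 2.90 (1.55 to 5.28). In cluster 7, led by Lce3a (72 injured, 75 uninjured cells), 2.90% of injured cells and 0 of 73 uninjured cells had G2/M members, and that count of 0 allows a share of up to 4.11%. Cdkn1a again was higher there, with 209 CPM in injured and 149 CPM in uninjured cells (ratio 1.40, 1.10 to 1.78), and Cdkn1b was lower, with 22.1 CPM in injured and 61.8 CPM in uninjured cells (ratio 0.358, 0.199 to 0.620). In cluster 9 Cdkn1b had 61.8 CPM in injured and 55.3 CPM in uninjured cells (ratio 1.12, 0.707 to 1.71). The highest Cdkn1a level among epithelial clusters was 849 CPM in uninjured cluster 11, and the highest among injured clusters was 520 CPM in cluster 9. The lower Cdkn1a of the injured class was therefore not seen inside either shared cluster.

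In the stroma the G2/M members were higher as a block after injury. Together they reached 321 CPM in injured and 65.5 CPM in uninjured stromal-like cells, a ratio of 4.90 (4.20 to 5.76), and G2/M members made up 55.4% (54.1 to 56.6) of phase gene UMIs in injured and 26.9% (23.5 to 30.6) in uninjured cells. Of the 21 members, 20 were at least 2-fold higher, where 11% of 11955 measured genes were, and the last, the kinetochore kinesin Cenpe, had a ratio of 1.89 (1.14 to 3.35). The median log2 ratio was 2.25, beside 0.00 for all measured genes. Mki67 had 26.8 CPM in injured and 4.65 CPM in uninjured cells (ratio 5.77, 3.25 to 11.3). Top2a had 29.6 CPM in injured and 5.82 CPM in uninjured cells (ratio 5.09, 3.04 to 9.21). Birc5, or survivin, a subunit of the chromosomal passenger complex, had 25.8 CPM in injured and 2.33 CPM in uninjured cells (ratio 11.1, 5.03 to 30.5), and its partner Cdca8, or borealin, had 16.4 CPM in injured and 1.55 CPM in uninjured cells (ratio 10.6, 4.06 to 39.3). Cells with at least 2 G2/M members made up 5.97% (47 of 787 cells, 4.42 to 7.86) of injured and 0.701% (3 of 428 cells, 0.145 to 2.03) of uninjured stromal-like cells at 2000 UMIs, a ratio of 8.52 (2.74 to 42.8), and without thinning they made up 17.5% of injured and 2.84% of uninjured cells.

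The stromal value was lower in thinned cells and with doublets kept. Injured stromal-like cells had a median of 12005 UMIs and uninjured ones 5725. The summed G2/M ratio was 3.34 (1.84 to 6.56) at 500 UMIs per cell, 3.87 (2.57 to 6.03) at 1000 and 2.80 (2.15 to 3.69) at 2000. From all UMIs with the predicted doublets kept it was 2.20. The uninjured G2/M percentage of phase gene UMIs was then 49.9% in place of 26.9%. The part of depth in these values was not tested. Epithelial markers took 1148 CPM in injured and 5531 CPM in uninjured stromal-like cells with fewer than 2 G2/M members. Among the 27 injured stromal-like cells with at least 2 G2/M members at 1000 UMIs they took 481 CPM, while stromal markers took 32000 CPM.

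The G1/S members of the stroma were higher to a lesser degree. Together they had 259 CPM in injured and 178 CPM in uninjured stromal-like cells, a ratio of 1.45 (1.32 to 1.61), which was 1.19 (0.987 to 1.43) in thinned cells. Of the 15, 9 were at least 2-fold higher, where 11% of all genes were, with a median log2 ratio of 1.03 that was 0.16 over the 4 still measured at 2000 UMIs per cell. Rrm2, the regulated subunit of ribonucleotide reductase, had 18.9 CPM in injured and 2.71 CPM in uninjured cells (ratio 6.97, 3.32 to 17.6), and Mcm3 had 12.1 CPM in injured and 2.33 CPM in uninjured cells (ratio 5.19, 2.32 to 14.4). Pcna, which also serves in DNA repair, was level with 86.5 CPM in injured and 88.4 CPM in uninjured cells (ratio 0.979, 0.845 to 1.14), and it made up much of the list. Ccne1 lay on the lower side with 17.7 CPM in injured and 24.0 CPM in uninjured cells (ratio 0.737, 0.549 to 1.00). All 3 Cdkn1 inhibitors were lower. Cdkn1a had 141 CPM in injured and 255 CPM in uninjured cells (ratio 0.552, 0.503 to 0.606), Cdkn1b had 32.6 CPM in injured and 62.8 CPM in uninjured cells (ratio 0.519, 0.428 to 0.630) and Cdkn1c had 138 CPM in injured and 232 CPM in uninjured cells (ratio 0.595, 0.540 to 0.656). None of the 4 inhibitors measured reached 2-fold over the whole class, where 10% of all genes were 2-fold lower. Over the class Ccnd2 had 122 CPM in injured and 201 CPM in uninjured cells, and Ccnd3 had 70.8 CPM in injured and 51.6 CPM in uninjured cells. Cluster 2, led by Mmp3, held stromal cells of both libraries (799 injured, 40 uninjured). There Cdkn1c had 137 CPM in injured and 850 CPM in uninjured cells (ratio 0.161, 0.131 to 0.201). The ratio was 0.568 (0.392 to 0.859) for Cdkn1a and 0.458 (0.229 to 1.07) for Cdkn1b. It was 0.345 (0.145 to 1.08) for Ccnd1, 0.458 (0.319 to 0.682) for Ccnd2 and 1.60 (0.683 to 4.94) for Ccnd3. With finer clustering (resolution 2) the stromal cluster led by Mmp3 held 551 injured and 0 uninjured cells. A stromal cluster led by Igfbp6 held 91 injured and 121 uninjured cells. Cluster 2 may thus not hold the same kinds of stromal cells in both libraries, and the part of this in its ratios was not tested.

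Both vessel classes had higher G2/M levels after injury, measured against few uninjured cells. In vascular endothelial-like cells the G2/M members had 1668 CPM (3489 UMIs) in injured and 52.2 CPM (8 UMIs) in uninjured cells, a ratio of 31.9 (16.2 to 74.0). In thinned cells it was 18.7 (7.69 to 232) at 2000 UMIs and 5.82 (3.06 to 698) at 500 UMIs, where the 2 and 1 uninjured UMIs were set to 3. Among the 199 injured and 27 uninjured cells with more endothelial than epithelial marker UMIs it was 30.9 (14.2 to 84.3). Uninjured cells of the class had 4925 CPM of epithelial and 4200 CPM of endothelial markers at 1000 UMIs per cell. The class scored 0.934 on lymphatic endothelial markers, beside 1 on vascular ones. At 2000 UMIs per cell, 45 of 191 injured cells (23.6%, 17.7 to 30.2) and 0 of 31 uninjured cells had at least 2 G2/M members, the count of 0 allowing a share of up to 9.68%. All 21 members had fewer than 3 UMIs in the uninjured cells, so single ratios were computed against 3 UMIs, and 16 of 21 were at least 2-fold higher on that footing, where 9.02% of 8017 genes were. These members passed the UMI minimum through the injured cells alone, and the median log2 ratio of 1.68 was 0.38 over the 8 still measured at 2000 UMIs. Ube2c had 217 CPM (455 UMIs) in injured and 6.53 CPM (1 UMI) in uninjured cells. Top2a had 160 CPM (335 UMIs) in injured cells and 0 UMIs in uninjured cells, a ratio of 8.18 against 3 UMIs (exact lower limit 6.61). The G1/S members together had 919 CPM in injured and 464 CPM in uninjured cells, a ratio of 1.98 (1.56 to 2.55). In thinned cells it was 1.75 (1.17 to 2.72) at 2000 UMIs, 1.31 (0.806 to 2.25) at 1000 and 2.39 (1.05 to 6.72) at 500. Of these members, 8 of 15 were at least 2-fold higher, where 9.02% of genes were. Yet 9 of the 15 had fewer than 3 uninjured UMIs, were set to 3 and passed the UMI minimum through the injured cells alone. In mural-like cells, the contractile and pericyte cells of vessels, the G2/M sum was 1744 CPM in injured and 175 CPM (22 UMIs) in uninjured cells, a ratio of 9.97 (6.56 to 16.0), and 6.51 (3.72 to 12.5) in thinned cells. The other 4 G2/M members had too few UMIs, and a member absent from uninjured cells was measured only where it was high in injured ones. Of the 17 measured, 13 were at least 2-fold higher, where 13.2% of 4662 genes were. Mural-like cells with at least 2 G2/M members made up 22.2% (18 of 81 cells) of injured and 5.71% (2 of 35 cells) of uninjured cells, a ratio of 2.59 against 3 cells (0.931 to 34.6). The mural G1/S shares were 22.2% in injured and 25.7% in uninjured cells.

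Schwann-like cells showed the same direction with weaker footing. The G2/M sum was 3291 CPM (1151 UMIs) in injured and 111 CPM (11 UMIs) in uninjured cells, a ratio of 29.6 (16.5 to 59.5), and 15.9 (5.25 to 78.5) at 500 UMIs per cell. All 17 measured members were at least 2-fold higher, where 16.9% of 3560 genes were, each with fewer than 3 UMIs in the uninjured cells, so that they passed the UMI minimum through the injured cells alone. Their median log2 ratio was 2.38, but -0.18 over the 6 members still measured at 2000 UMIs per cell. Injured Schwann-like cells with at least 2 G2/M members at 1000 UMIs had 2214 CPM of Schwann markers, against 7474 CPM in the other injured cells of the class, and 2857 CPM of epithelial markers, against 1205 CPM. Only 90 injured and 25 uninjured cells had more Schwann than epithelial marker UMIs. In those cells the summed ratio was 17.1 (7.28 to 52.7) and the median log2 ratio was 0.27. With the markers compared instead after thinning to 1000 UMIs, 73 injured and 18 uninjured cells were left. Of these, 6 injured cells (8.22%, 3.08 to 17.0) and 0 uninjured cells (exact upper limit 18.5%) had at least 2 G2/M members. Endothelial-like G2/M cells had 1237 CPM of epithelial markers, against 1018 CPM in the other injured cells of that class, and mural-like G2/M cells 857 CPM, against 1371 CPM.

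In macrophage or monocyte-like cells 16 uninjured cells were too few for the single members. The G2/M sum was 764 CPM in injured and 242 CPM (14 UMIs) in uninjured cells, a ratio of 3.16 (1.88 to 5.80) that was 1.55 (0.774 to 3.62) in thinned cells. The median log2 ratio of the 18 measured members was -0.63, opposite in sign to the sum, because 16 of them had fewer than 3 uninjured UMIs and were set to 3. It stood beside -0.72 for all genes, and 0 of 18 members were 2-fold higher, where 4.38% of 7299 genes were, and 6 of 18 were 2-fold lower, where 40.3% were.

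**Figure D4:**
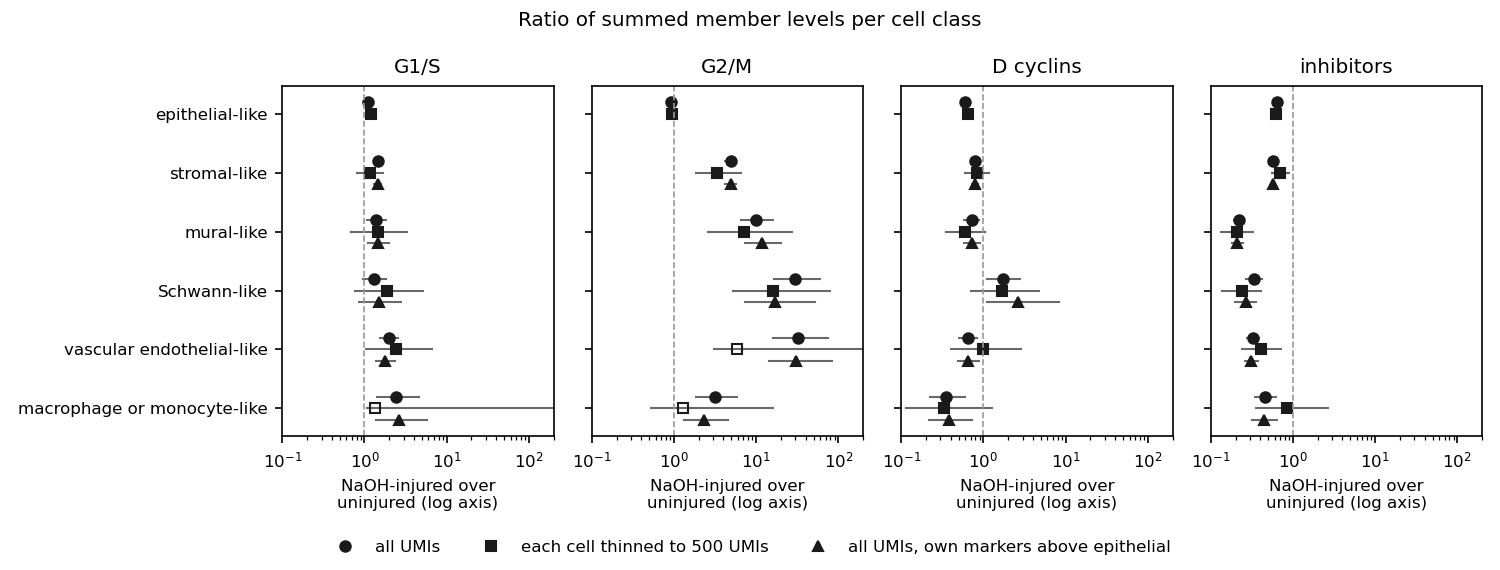
Ratio of the summed member level, NaOH-injured over uninjured (log axis), for each list and cell class, from all UMIs (circles), cells thinned to 500 UMIs (squares) and, outside the epithelium, cells with more own than epithelial marker UMIs (triangles); lines are 95% intervals, cut at 200, and open symbols had fewer than 3 uninjured UMIs and were set to 3. The G2/M ratios lie above 1 in the stromal, mural, Schwann and endothelial classes and just below 1 in the epithelium, and the inhibitor ratios from all UMIs lie below 1 in all 6 classes.

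Summed over all UMIs of a class, the inhibitors were lower in the injured cells of all 6 classes. Epithelial clusters 7 and 9, where Cdkn1a was higher after injury, were exceptions for that gene. The summed ratio was 0.647 in epithelial-like, 0.570 in stromal-like, 0.222 in mural-like, 0.335 in Schwann-like, 0.325 in vascular endothelial-like and 0.457 in macrophage or monocyte-like cells. At 500 UMIs per cell the macrophage or monocyte ratio was 0.849 (0.351 to 2.68), against 5 uninjured UMIs. The other classes kept intervals below 1 at that depth. Outside the stroma, where Cdkn1c was as abundant in injured cells, Cdkn1a carried most of these sums. Mural-like cells had 492 CPM in injured and 2488 CPM in uninjured cells, a ratio of 0.198 (0.169 to 0.232), and Schwann-like cells had 412 CPM in injured and 1363 CPM in uninjured cells, a ratio of 0.302 (0.237 to 0.385). Vascular endothelial-like cells had 340 CPM in injured and 1136 CPM in uninjured cells, a ratio of 0.300 (0.253 to 0.356). These uninjured levels were above the 621 CPM of the uninjured epithelium. Of the measured inhibitors, 2 of 3 were at least 2-fold lower in mural-like cells, where 10.6% of genes were, 3 of 3 in Schwann-like cells, where 6.54% were, and 2 of 3 in vascular endothelial-like cells, where 12.8% were. Cdkn1c was the second in the vessel classes, with 38.2 CPM in injured and 143 CPM in uninjured mural-like cells (ratio 0.267, 0.140 to 0.520) and 19.6 CPM in injured and 65.3 CPM in uninjured vascular endothelial-like cells (ratio 0.300, 0.148 to 0.672).

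The D cyclins differed by class. Ccnd1, lower in the epithelium, had 202 CPM in injured and 31.8 CPM (4 UMIs) in uninjured mural-like cells, a ratio of 6.35 (2.42 to 23.6), and 201 CPM in injured and 183 CPM in uninjured vascular endothelial-like cells (ratio 1.10, 0.751 to 1.68). Ccnd2 had 56.4 CPM in injured and 287 CPM in uninjured vascular endothelial-like cells, a ratio of 0.196 (0.138 to 0.284), and 375 CPM in injured and 819 CPM in uninjured mural-like cells (ratio 0.457, 0.362 to 0.582). Ccnd2 was thus at least 2-fold lower in both vessel classes and within 2-fold in the epithelium and stroma as whole classes. In macrophage or monocyte-like cells 2 of 3 D cyclins were at least 2-fold lower, where 40.3% of genes were. Their summed ratio there was 0.353 (0.223 to 0.588), against 20 uninjured UMIs. Schwann-like cells went the other way, with a summed ratio of 1.71 (1.11 to 2.76), against 24 uninjured UMIs.

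**Figure D5:**
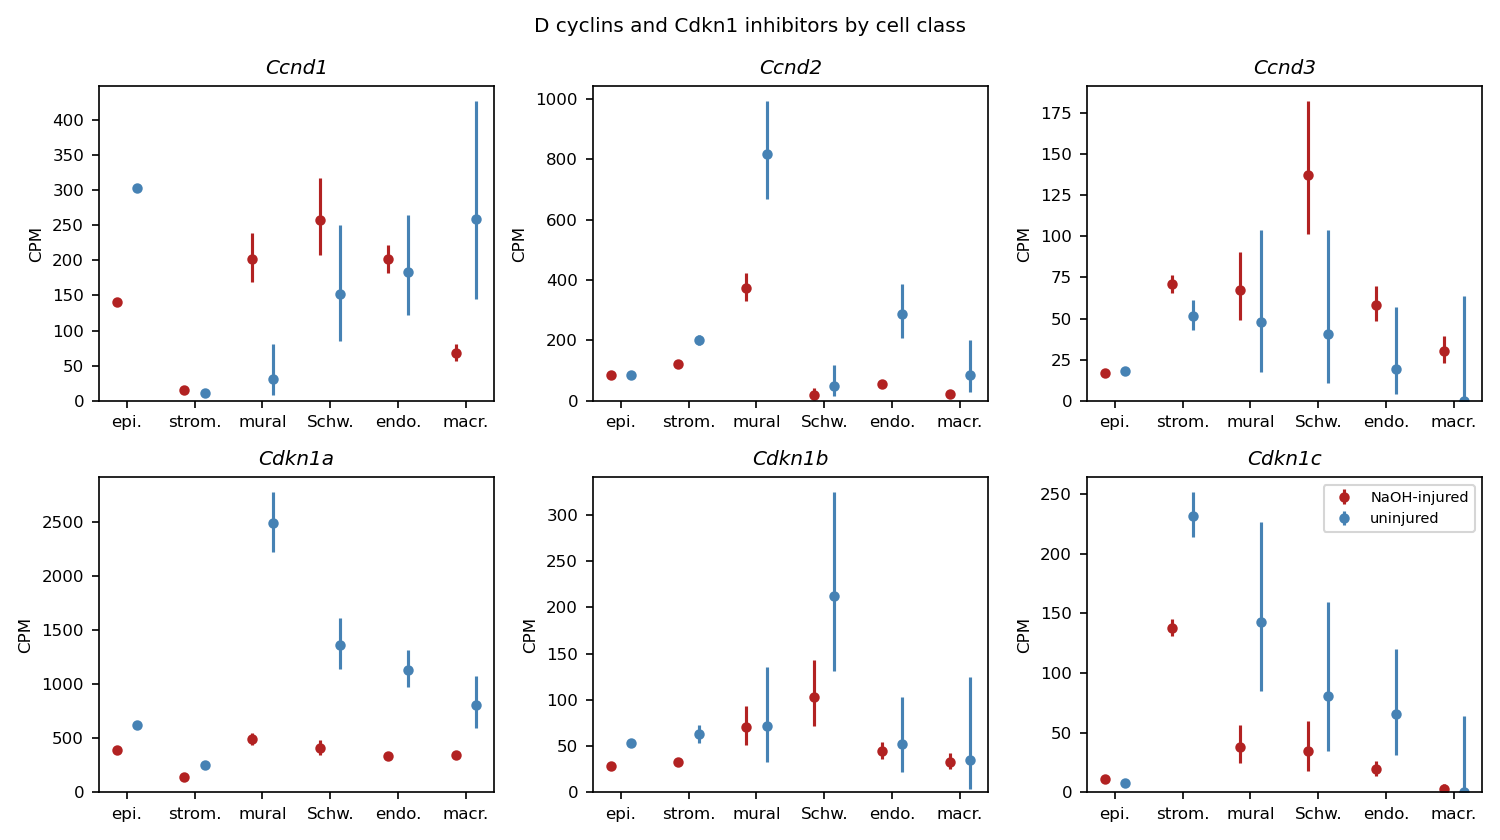
Levels in CPM of the 3 D cyclins and 3 Cdkn1 inhibitors per cell class (epithelial, stromal, mural, Schwann, vascular endothelial, macrophage or monocyte), NaOH-injured in red (left of each pair) and uninjured in blue; bars are 95% Poisson intervals. Cdkn1a is lower in the injured cells of every class, most of all in mural-like cells with 492 CPM injured and 2488 CPM uninjured.

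Other cell cycle genes of the epithelium, from further lists, stayed near the members. None of 28 other S phase genes was 2-fold higher or lower, with a median log2 ratio of 0.11, where 14.2% of all genes were higher and 11.8% lower. Of 34 other G2 and mitosis genes, 1 was 2-fold lower, with a median of -0.24: Kif23, a kinesin of cytokinesis, had 18.5 CPM in injured and 38.2 CPM in uninjured cells (ratio 0.484, 0.454 to 0.516). In the stroma, 10 of 25 measured S phase genes and 14 of 31 measured G2 and mitosis genes were at least 2-fold higher, where 11% of all genes were. Their median log2 ratios were 0.45 (S phase) and 0.84 (G2 and mitosis) with all UMIs, but -0.20 over 10 S phase genes and 0.07 over 15 G2 and mitosis genes still measured at 2000 UMIs per cell.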

How the data were processed

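The deposited files hold raw UMI counts per gene and cell barcode, made by the authors; the file headers name Cell Ranger 7.0.1 and the submitters' processing notes name GRCm38. The injured library had 9399 barcodes and 108863350 UMIs, the uninjured one 7490 barcodes and 85457541 UMIs; 15 barcodes occurred in both. Barcodes under 300 genes or 500 UMIs, or over 20% mitochondrial UMIs, were dropped, and the highest doublet scores were removed at 0.8% per 1000 barcodes (677 injured, 428 uninjured), since the scorer's own threshold marked only 3 injured and 32 uninjured cells. The scanpy (1.11.5) clustering used 2000 variable genes, 30 components and resolution 1. Cell cycle genes, histones and genes correlated with the members, 1406 in all, were left out of it; the last 2 kinds were added after seeing that histones led some clusters. Classes were named by marker levels with at least 3 markers detected. A cluster stayed unnamed otherwise, or where another class had more markers among its 10 leading genes. It also stayed unnamed where its median UMIs were under its library's divided by 3 and none of its own markers were among those genes. UMIs were summed per class and library. A count under 3 was set to 3 for ratios. Whether counting used strand was not given in the sources used here, and several members overlap genes on the opposite strand, among them Ube2c and Tnnc2, Ccna2 and Exosc9, and Mcm7 and Cops6. The members and lists were chosen with earlier results of these data known. All members are accounted for; of other listed genes, those of at least 10 CPM in 1 library and a ratio of at least 2-fold in the epithelium were named, at most 3 per list and direction. Alternatives were a stricter cell filter, doublets kept, clustering with cell cycle genes, resolution 2, other thinning depths, another thinning seed, other UMI filters, median scaling, at least 3 members per cell, and lists without their most abundant member. Functions were tested on simulated counts.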

Additional observations from a re-analysis of the deposited data

How the results depend on the processing

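No paired analysis was possible because each group has 1 library. Of 349 values of the main results recomputed under alternatives, 301 stayed within their counting interval and 48 moved. A ratio or median changed side in 4 of these, the mural G1/S sum and Schwann G2/M median in thinned cells, the Schwann G1/S median without a UMI filter and the vascular endothelial ratio of G1/S shares at 5000 UMIs. With cells thinned to 2000 UMIs the summed G2/M ratio was 0.863 in epithelial-like, 2.80 in stromal-like, 6.51 in mural-like, 8.97 in Schwann-like and 1.55 in macrophage or monocyte-like cells, the summed G1/S ratio 1.13, 1.19, 0.893 and 2.29 in epithelial-, stromal-, mural- and Schwann-like cells, and the median log2 ratio 0.16 (G1/S, stromal), -0.18 (G2/M, Schwann) and 0.38 (G2/M, vascular endothelial); of single genes, Cdc20 in the stroma reversed to -0.071. Without doublet removal the stromal G2/M median was 1.25 and the summed ratio 2.20, and the G2/M percentage of phase UMIs was 60.6% in injured and 49.9% in uninjured stromal-like and 66.9% in injured vascular endothelial-like cells. At resolution 2 the stromal values were 1.60, 2.75 and 39.6% (uninjured), and the epithelial ones 0.871 for the summed G2/M ratio and 66.1% (injured). There 521 injured cells, in clusters that scored highest on epithelial markers, stayed unnamed and were left out. Clustering with cell cycle genes gave summed epithelial ratios of 1.07 (G1/S) and 0.874 (G2/M), with 678 uninjured and 2 injured cells left unnamed. Without a UMI filter the Schwann G1/S median was -0.45. The ratio of shares of epithelial cells with G1/S members was 1.02 at 3 or more members, 1.36 at 5000 UMIs and 1.42 without thinning, where the G2/M ratio was 1.31; for stromal-like cells the G1/S ratio was 3.63 at 3 or more members. In vascular endothelial-like cells at 5000 UMIs it was 0.872 (0.423 to 2.09) for G1/S. Where no uninjured cell had the members, the ratio was set against 3 cells, so that a value under 1 shows no lower injured share. It was 1.73 (exact lower limit 1.37) for vascular endothelial G2/M at 5000 UMIs. For macrophage or monocyte G1/S it was 0.165 (exact lower limit 0.113) at 3 or more members and 0.351 (0.263) at 1000 UMIs. Without cells with more epithelial than own marker UMIs, an alternative chosen after seeing the data, the Schwann G2/M median was 0.27 and its injured percentage 80.4%. The injured macrophage or monocyte percentage was then 53.7%. The vascular endothelial ratio of G2/M shares was 1.85 (exact lower limit 1.45), again against 3 cells. Without Ube2c and Pcna, the most abundant members, the G2/M percentages in injured cells were 69.9% (epithelial), 63.2% (stromal), 74.1% (mural), 67.9% (vascular endothelial), 88.4% (Schwann) and 65.9% (macrophage or monocyte), and in uninjured cells 74.5% (epithelial), 40.2% (stromal), 35.8% (mural) and 21.2% (vascular endothelial). The median log2 ratio of all genes with at least 50 UMIs was 0.24 in mural-like, 0.16 in Schwann-like, 0.25 in vascular endothelial-like and -0.20 in macrophage or monocyte-like cells. Scaling by it moved no G1/S or G2/M median or sum beyond its counting interval. The summed inhibitor ratios of mural-like and vascular endothelial-like cells moved below the lower end of theirs. The cause of these shifts was not tested. Few uninjured cells outside the epithelium and stroma limit every ratio there, and depth differed between libraries in each of those classes.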

Other observations

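Among genes that p53 is known to turn on, fixed as a list beside Cdkn1a, the epithelium did not move as a block: of 16 genes, 3 were at least 2-fold higher and 2 at least 2-fold lower, with a median log2 ratio of 0.10 (14.2% of all genes were higher and 11.8% lower). Mdm2, the ubiquitin ligase of p53, had 116 CPM in injured and 255 CPM in uninjured epithelial-like cells, a ratio of 0.453 (0.442 to 0.464). Btg2, an antiproliferative gene, had 168 CPM in injured and 483 CPM in uninjured cells, a ratio of 0.349 (0.342 to 0.356). Pmaip1, which encodes the proapoptotic protein Noxa, went the other way with 34.6 CPM in injured and 8.89 CPM in uninjured cells, a ratio of 3.89 (3.57 to 4.24). Eda2r, a receptor of the tumour necrosis factor family chosen after its values were seen, had 1.14 CPM in injured cells and 0 UMIs in uninjured cells. Its ratio was 28.1 with the uninjured count set to 3 UMIs.

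Of 21 genes of the RB and E2F pathway, 2 were at least 2-fold higher in the injured epithelium and 1 lower, beside 14.2% of all genes higher and 11.8% lower, all 3 below 10 CPM and chosen after their values were seen. Of the higher ones, Lin9 had 8.21 CPM in injured and 3.04 CPM in uninjured cells (ratio 2.70, 2.32 to 3.15). Mybl2, which encodes B-Myb, had 5.07 CPM in injured and 1.91 CPM in uninjured cells (ratio 2.66, 2.19 to 3.24). E2f2 had 0.476 CPM in injured and 1.12 CPM in uninjured cells (ratio 0.424, 0.281 to 0.629).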
